A study of Mus musculus with 16 samples.

Results

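The genes described here carry out the cell division cycle: cyclins and their kinases, the proteins that load and run the replicative helicase, the enzymes that supply nucleotides, and the machinery of the mitotic spindle. They were chosen by name, 55 symbols in all, and 51 of them were found among the 18132 genes of the deposited table. CDK4, MKI67, AURKB and KIF20A were not found under those symbols and were not analysed here. Symbols are written in capitals, as the table gives them, and CDC2A is the older name of the kinase Cdk1. The kidneys came from wildtype (WT) C57/BL6 mice and from IL-33-deficient mice (IL-33 KO in the labels) of a strain backcrossed to C57BL/6J BomTac. In unilateral ureteral obstruction (UUO) a metal clip closed the left ureter of a young adult mouse, and the kidney was harvested after 24 h. Of the obstructed kidneys 7 were WT and 5 lacked IL-33, and each genotype had 2 controls, all with 1 array per kidney, and the labels do not say whether the controls had been sham-operated. The labels place each obstructed kidney in 1 of 2 sets. Set 1 gave 3 WT kidneys and 2 that lacked IL-33, set 2 gave 4 and 3, and the controls carry no set.

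Most tubule cells of a healthy adult kidney rest outside the cell cycle, and after injury surviving cells can re-enter it. On entry, D-type cyclins and cyclin E with CDK2 release E2F factors from the retinoblastoma proteins, and E2F turns on the genes of DNA replication. CDC6 and CDT1 then load the ring of MCM2 to MCM7 onto replication origins, where it becomes the helicase of the fork. Genes of mitosis come on later, largely through FOXM1 and related complexes, and act in chromosome condensation, the spindle checkpoint and cell division.

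All values below are log2 intensities or differences between them, from Illumina MouseRef-8 BeadChips, on which labelled RNA lights up the probes of its gene. The median gene had a mean log2 intensity of 7.05 over the 16 arrays and the lowest value on any array was 6.59. Background thus lay close under the median gene, and 20 of the 51 genes were dimmer than it. Of these, 9 were among the 11 genes of mitotic entry, 5 among the 14 of the spindle, 4 among the 10 of G1, 2 among the 16 of origin licensing and nucleotide supply, and none among MCM2 to MCM7. A log2 change of a dim gene understates the change of its transcript. IL33 itself was at 7.62 and 8.02 in WT controls, between 8.39 and 9.57 in WT kidneys after UUO, and between 6.80 and 7.02 in all 7 IL-33-deficient kidneys. The tubule injury gene HAVCR1 was at 7.07 to 7.37 in the 4 controls and at 13.12 to 13.95 after UUO, except in the WT kidneys labelled 3818, at 12.84, and 3820, at 10.42, both of set 1. Replicate arrays of a group correlated with r between 0.972 and 0.997. Nothing in the labels says more of the replicates than that they are separate kidneys, and p-values measure the spread between them. For limma that spread was pooled over all groups of a fit, controls with 2 kidneys included, and moderated across genes.

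Within 24 h of UUO, genes of DNA replication rose in both genotypes, among them MCM5, MCM4, CDT1, UHRF1 and TYMS. In WT kidneys 12 of the 51 genes were higher than in controls at an adjusted p of 0.05 from limma and 0 were lower, while 6.97% of all genes tested were higher and 8.22% lower. In IL-33-deficient kidneys 19 were higher and 0 lower, against 10.6% and 11.2% of all genes. The 12 called in WT kidneys were all among the 19, and 32 genes were called in neither genotype. The median change over the 51 genes was 0.12 in WT and 0.18 in IL-33-deficient kidneys, beside medians of -0.00076 and -0.00057 over all genes. At an unadjusted p of 0.05 limma gave 17 genes in WT and 26 in IL-33-deficient kidneys, all of them higher, while 12.3% and 15.2% of all genes were higher and 13.7% and 15.6% lower at that p.

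The calls were uneven between steps of the cycle. Of the 16 genes of origin licensing, the helicase and nucleotide supply, 9 were called in WT and 11 in IL-33-deficient kidneys, with median changes of 0.28 and 0.37. Of the 10 genes of G1, 2 were called in each genotype (CDK2 and E2F1), with medians of 0.08 and 0.04. Of the 14 genes of the spindle, kinetochore and chromosome, 1 was called in WT and 5 in IL-33-deficient kidneys, with medians of 0.08 and 0.17. Of the 11 genes of mitotic entry, 0 were called in WT and 1 in IL-33-deficient kidneys, with medians of 0.01 and 0.07, and at an unadjusted p of 0.05 limma gave 0 and 5, beside the 12.3% and 15.2% of all genes that were higher. In the last group 9 of the 11 genes lay below the median gene.

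**Figure D1:**
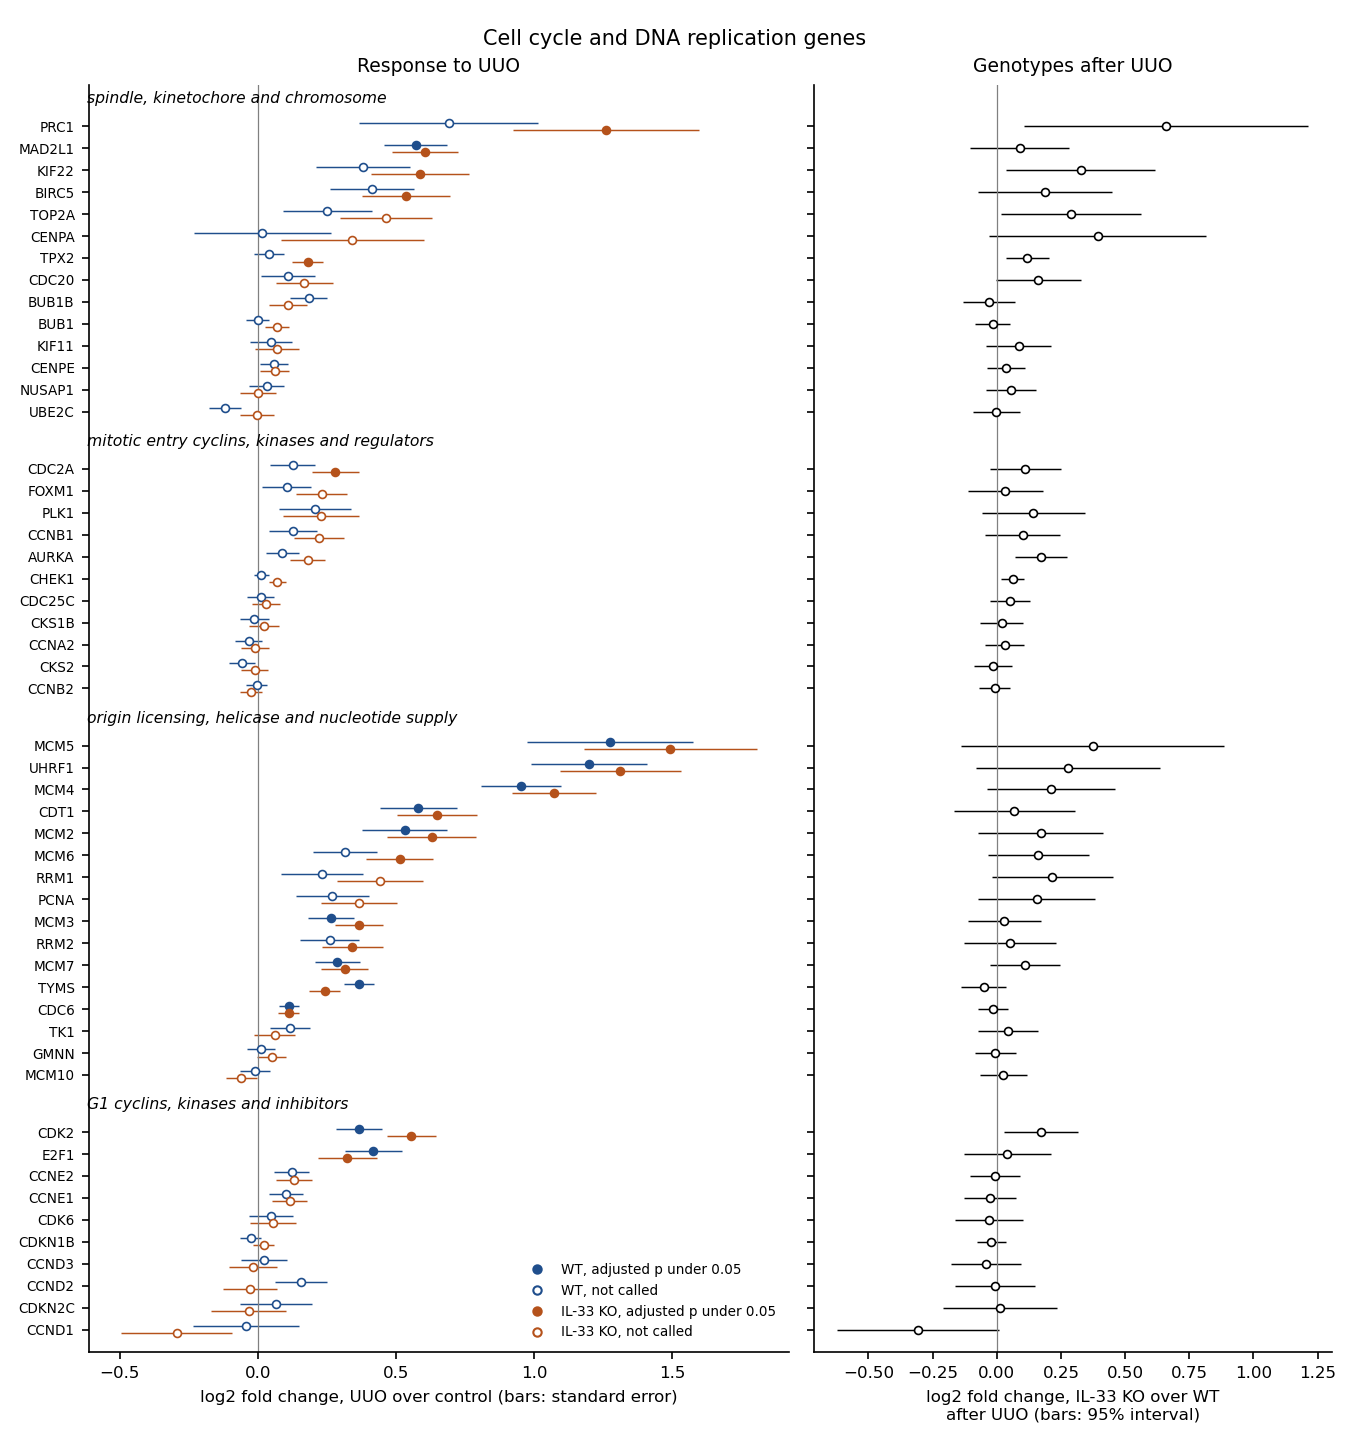
The left panel plots the log2 fold change of UUO over control for each of the 51 genes, grouped by role, with WT in blue, IL-33 KO in brown, filled points at an adjusted p under 0.05 and bars of 1 standard error; the right panel plots IL-33 KO over WT after UUO with 95% intervals. MCM5, UHRF1 and MCM4 lie farthest right in both genotypes among the replication genes, most genes of mitotic entry lie near 0, and 0 genes were called in the right panel.

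The MCM2 to MCM7 subunits, which together form the ring of the replicative helicase, were called in 5 of 6 cases in WT and in 6 of 6 in IL-33-deficient kidneys, with median changes of 0.42 and 0.57. MCM5 changed most. It was at 7.63 and 7.55 in WT controls and at 7.82, 9.04 and 9.49 (lowest, median and highest of 7) in WT kidneys after UUO. It was at 7.67 and 7.83 in IL-33-deficient controls and at 9.34, 9.10, 9.53, 9.12 and 9.13 after UUO. Every obstructed kidney lay above every control of its genotype, and the lowest WT value was that of kidney 3820. The rise was 2.42-fold in WT (log2 1.28, standard error 0.30, adjusted p = 0.00987 from limma) and 2.82-fold in IL-33-deficient kidneys (log2 1.49, standard error 0.31, adjusted p = 0.00275). By the exact two-sided permutation test over kidneys, p was 0.0278 in WT and 0.0476 in IL-33-deficient kidneys, in each case the smallest that the number of kidneys allows. Separation from the controls, here and below, is described without a share over all genes. Genes that were not called were separated too, such as BUB1 and CENPE in IL-33-deficient kidneys and TOP2A and BUB1B in WT kidneys.

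MCM4 was at 7.45 and 7.42 in WT controls and at 7.91, 8.43 and 8.66 (lowest, median and highest) after UUO. In IL-33-deficient kidneys it was at 7.53 in both controls and at 8.84, 8.52, 8.57, 8.50 and 8.57 after UUO. The groups did not overlap in either genotype, and the rise was 1.94-fold in WT (log2 0.95, standard error 0.15, adjusted p = 0.00077 from limma) and 2.10-fold in IL-33-deficient kidneys (log2 1.07, standard error 0.15, adjusted p = 0.000164). MCM2 was at 7.43 and 7.42 in WT controls and at 7.52, 7.93 and 8.40 after UUO, and at 7.30 and 7.69 against 8.24, 8.15, 8.15, 8.12 and 7.98 in IL-33-deficient kidneys. Its log2 changes were 0.53 and 0.63, with adjusted p of 0.03 and 0.01 from limma. The groups were again separate, though the IL-33-deficient controls lay farther apart than those of WT mice.

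MCM3 and MCM7 changed less, and both lie close to the median gene. MCM3 was at 6.87 and 6.91 in WT controls and at 6.98, 7.11 and 7.37 after UUO, and at 6.79 and 6.84 against 7.30, 7.19, 7.18, 7.13 and 7.10 in IL-33-deficient kidneys (log2 changes 0.26 and 0.37). MCM7 was at 7.01 and 7.08 in WT controls and at 7.04, 7.38 and 7.42 after UUO, and at 7.09 and 7.16 against 7.49, 7.30, 7.45, 7.53 and 7.43 in IL-33-deficient kidneys (log2 changes 0.29 and 0.31). WT kidney 3820 lay between the controls for MCM7, and the exact permutation p in WT kidneys was 0.0556 for MCM7 and also for MCM3. MCM6 was at 7.72 and 7.66 in WT controls and at 7.64, 8.04 and 8.29 after UUO, and at 7.73 and 7.58 against 8.24, 8.04, 8.16, 8.15 and 8.25 in IL-33-deficient kidneys. Kidney 3820 lay below both WT controls for this gene. The log2 change of MCM6 was 0.32 in WT (adjusted p = 0.0853 from limma, not called) and 0.51 in IL-33-deficient kidneys (adjusted p = 0.00618). MCM10, a replication factor outside the ring, was not called, with changes of -0.01 and -0.06.

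The loading factors and partners of the helicase differed in size of change. CDT1, which brings the MCM ring to origins, was at 7.62 and 7.68 in WT controls and at 7.84, 8.23 and 8.57 after UUO, and at 7.58 and 7.72 against 8.40, 8.39, 8.25, 8.08 and 8.39 in IL-33-deficient kidneys. All obstructed kidneys lay above their controls, with log2 changes of 0.58 (adjusted p = 0.0111 from limma) and 0.65 (adjusted p = 0.00435). CDC6, which acts with CDT1, moved only from 6.84 and 6.85 to between 6.89 and 7.003 in WT and from 6.81 and 6.85 to between 6.90 and 6.99 in IL-33-deficient kidneys. It was called with a log2 change of 0.11 in both (adjusted p = 0.0469 and 0.0432 from limma), below the median gene throughout. GMNN, the inhibitor of CDT1, was not called, with changes of 0.01 and 0.05 near background.

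UHRF1 recruits the maintenance DNA methyltransferase to newly replicated DNA. It was at 6.92 and 7.03 in WT controls and at 7.42, 8.41 and 8.45 after UUO, and at 7.17 and 7.12 against 8.43, 8.39, 8.55, 8.55 and 8.37 in IL-33-deficient kidneys. Controls lay around the median gene and obstructed kidneys clear of it, 2.30-fold higher in WT (log2 1.20, standard error 0.21, adjusted p = 0.00162 from limma) and 2.48-fold in IL-33-deficient kidneys (log2 1.31, standard error 0.22, adjusted p = 0.000532). PCNA, the sliding clamp of the polymerases, was not called, with changes of 0.27 and 0.37 (adjusted p = 0.219 and 0.0765 from limma).

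Among the enzymes of nucleotide supply, TYMS, which makes thymidylate, was at 7.37 and 7.31 in WT controls and at 7.58, 7.72 and 7.81 after UUO, and at 7.36 and 7.46 against 7.62, 7.70, 7.66, 7.61 and 7.67 in IL-33-deficient kidneys. It had the smallest adjusted p of the 51 genes in WT kidneys, 0.00059 from limma, with a log2 change of 0.37, and its values in kidneys 3818 and 3820, 7.72 and 7.75, were not low. In IL-33-deficient kidneys the change was 0.24 (adjusted p = 0.00534). RRM2, the small subunit of ribonucleotide reductase, was at 6.96 and 6.97 in WT controls and at 7.004, 7.24 and 7.40 after UUO, and at 6.89 and 6.98 against 7.27, 7.52, 7.30, 7.13 and 7.17 in IL-33-deficient kidneys. It was called in IL-33-deficient kidneys alone (log2 0.34, adjusted p = 0.0367 from limma, against 0.26 and 0.124 in WT). RRM1, its partner subunit, and TK1, the thymidine kinase, were not called, with changes of 0.23 and 0.44 for RRM1 and of 0.12 and 0.06 for TK1.

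**Figure D2:**
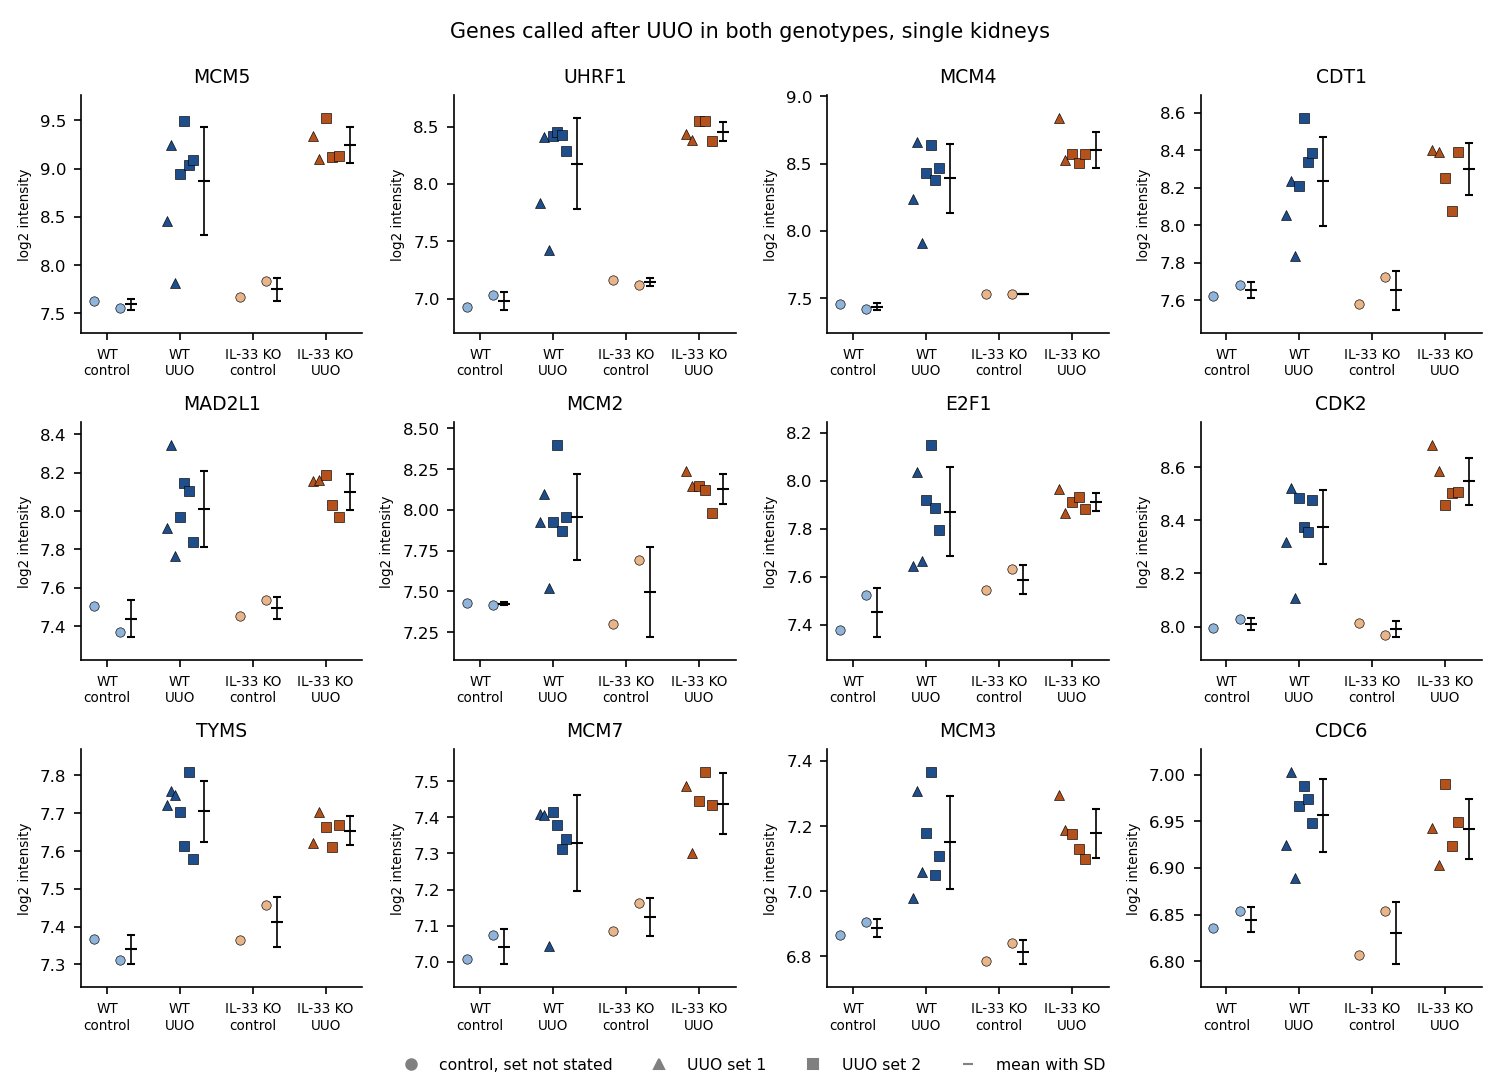
Each panel plots 1 of the 12 genes called after UUO in both genotypes, with the log2 intensity of every kidney on the vertical axis, the 4 groups on the horizontal axis, circles for controls, triangles for UUO set 1, squares for UUO set 2, and the mean with its SD beside each group. Apart from 1 WT kidney for MCM7, the obstructed kidneys lie above the controls of their genotype in every panel, and the lowest obstructed value in the MCM panels other than MCM3 is that of WT kidney 3820. The genes were picked as higher, so this separation is not further evidence of a rise.

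In G1, the 2 genes that rose were CDK2, the kinase that cyclin E activates, and E2F1, a transcription factor of replication genes. CDK2 was at 7.99 and 8.03 in WT controls and at 8.11, 8.38 and 8.52 after UUO, and at 8.01 and 7.97 against 8.68, 8.58, 8.46, 8.50 and 8.51 in IL-33-deficient kidneys. No obstructed kidney overlapped its controls, and the changes were 0.37 (adjusted p = 0.00905 from limma) and 0.56 (adjusted p = 0.000383). E2F1 was at 7.38 and 7.52 in WT controls and at 7.64, 7.89 and 8.15 after UUO, and at 7.54 and 7.63 against 7.96, 7.87, 7.91, 7.93 and 7.88 in IL-33-deficient kidneys, a change of 0.42 (adjusted p = 0.0126) and 0.32 (adjusted p = 0.0422).

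The cyclins upstream of them were not called. CCND1, the brightest of the 51 genes in these kidneys, was at 11.04 and 10.80 in WT controls and at 10.46, 10.85 and 11.45 after UUO, and at 10.71 and 11.03 against 10.46, 10.43, 10.75, 10.63 and 10.60 in IL-33-deficient kidneys. Its groups overlapped in both genotypes, with changes of -0.04 (95% interval -0.45 to 0.37) and -0.29 (95% interval -0.72 to 0.14). CCND2 and CCND3 had changes of 0.16 and 0.02 in WT and of -0.03 and -0.02 in IL-33-deficient kidneys. CCNE1 and CCNE2, the partners of CDK2, had changes of 0.10 and 0.12 in WT and of 0.11 and 0.13 in IL-33-deficient kidneys, with an adjusted p of 0.189 or more from limma. CDK6, a partner of the D-type cyclins, and the inhibitors CDKN1B (p27) and CDKN2C (p18) had changes between -0.03 and 0.07.

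Of the genes of mitotic entry, CDC2A, the kinase that drives it, was at 6.87 and 6.94 in WT controls and at 6.84, 7.04 and 7.20 after UUO, and at 6.88 and 6.84 against 7.30, 7.22, 7.14, 7.01 and 7.04 in IL-33-deficient kidneys. The change was 0.28 in IL-33-deficient kidneys, where the groups did not overlap (adjusted p = 0.0258 from limma), and 0.13 in WT kidneys (adjusted p = 0.383). Its cyclin partners CCNA2 and CCNB2 and the kinase subunits CKS1B and CKS2 had changes between -0.06 and 0.02, at levels between 6.66 and 6.95 that are those of background. CCNB1, the kinases PLK1 and AURKA and the transcription factor FOXM1 had changes of 0.09 to 0.21 in WT and of 0.18 to 0.23 in IL-33-deficient kidneys, none called. The checkpoint kinase CHEK1 and its target CDC25C, the phosphatase that activates CDC2A, had changes between 0.01 and 0.07.

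Of the genes of the spindle, kinetochore and chromosome, MAD2L1, a protein of the spindle checkpoint, was called in both genotypes. It was at 7.51 and 7.37 in WT controls and at 7.77, 7.97 and 8.34 after UUO, and at 7.45 and 7.54 against 8.16, 8.16, 8.19, 8.03 and 7.97 in IL-33-deficient kidneys. Obstructed and control kidneys were separate. The change in WT kidneys was 0.57 with a standard error of 0.11 (adjusted p = 0.00381 from limma), and in IL-33-deficient kidneys 0.61 with one of 0.12 (adjusted p = 0.0018). The other genes of the checkpoint were not called, with changes of 0.18 and 0.11 for BUB1B, 0.00 and 0.07 for BUB1 and 0.11 and 0.17 for CDC20, the activator of the anaphase ligase. UBE2C, a ubiquitin enzyme of that ligase, had changes of -0.12 and -0.00355.

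PRC1, which bundles the microtubules of the midzone before cytokinesis, was called in IL-33-deficient kidneys. It was at 7.17 and 7.29 in WT controls and at 7.43, 7.95 and 8.68 after UUO, and at 7.31 and 7.33 against 9.38, 8.99, 8.35, 7.98 and 8.20 in IL-33-deficient kidneys. All obstructed kidneys were above their controls. The change was 1.26 in IL-33-deficient kidneys (2.40-fold, standard error 0.34, adjusted p = 0.0134 from limma) and 0.69 in WT kidneys (standard error 0.32, adjusted p = 0.192, not called). KIF22, a motor that holds chromosomes on the spindle, was at 7.03 and 7.05 in WT controls and at 6.98, 7.43 and 7.70 after UUO, and at 7.22 and 7.10 against 7.97, 8.07, 7.75, 7.42 and 7.53 in IL-33-deficient kidneys, with changes of 0.38 (adjusted p = 0.17) and 0.59 (adjusted p = 0.0273). BIRC5 (survivin), a subunit of the chromosomal passenger complex, was at 6.96 and 6.92 in WT controls and at 7.04, 7.42 and 7.59 after UUO, and at 7.01 and 6.996 against 7.77, 7.81, 7.48, 7.29 and 7.36 in IL-33-deficient kidneys, with changes of 0.41 (adjusted p = 0.0874) and 0.54 (adjusted p = 0.0246). By the exact two-sided permutation test, p in IL-33-deficient kidneys was 0.0952 for each of PRC1, KIF22 and BIRC5. The smallest p possible there was 0.0476.

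TPX2, an activator of AURKA on the spindle, was called in IL-33-deficient kidneys with a small change of 0.18 (adjusted p = 0.0295 from limma), from 6.90 and 6.78 to 6.96, 7.14, 7.05, 7.04 and 6.92, all close to background. In WT kidneys its change was 0.04. TOP2A, the topoisomerase that untangles sister chromatids, had changes of 0.25 and 0.46 (adjusted p = 0.376 and 0.0617). CENPA, the histone of centromeres, had changes of 0.02 and 0.34, CENPE and KIF11, motors of the spindle, of 0.05 to 0.07, and NUSAP1, a microtubule-binding protein, of 0.03 and 0.00142. That PRC1, KIF22, BIRC5, TPX2, CDC2A, RRM2 and MCM6 passed the threshold in one genotype and not in the other does not show that the genotypes differed: the test of that difference is given below.

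**Figure D3:**
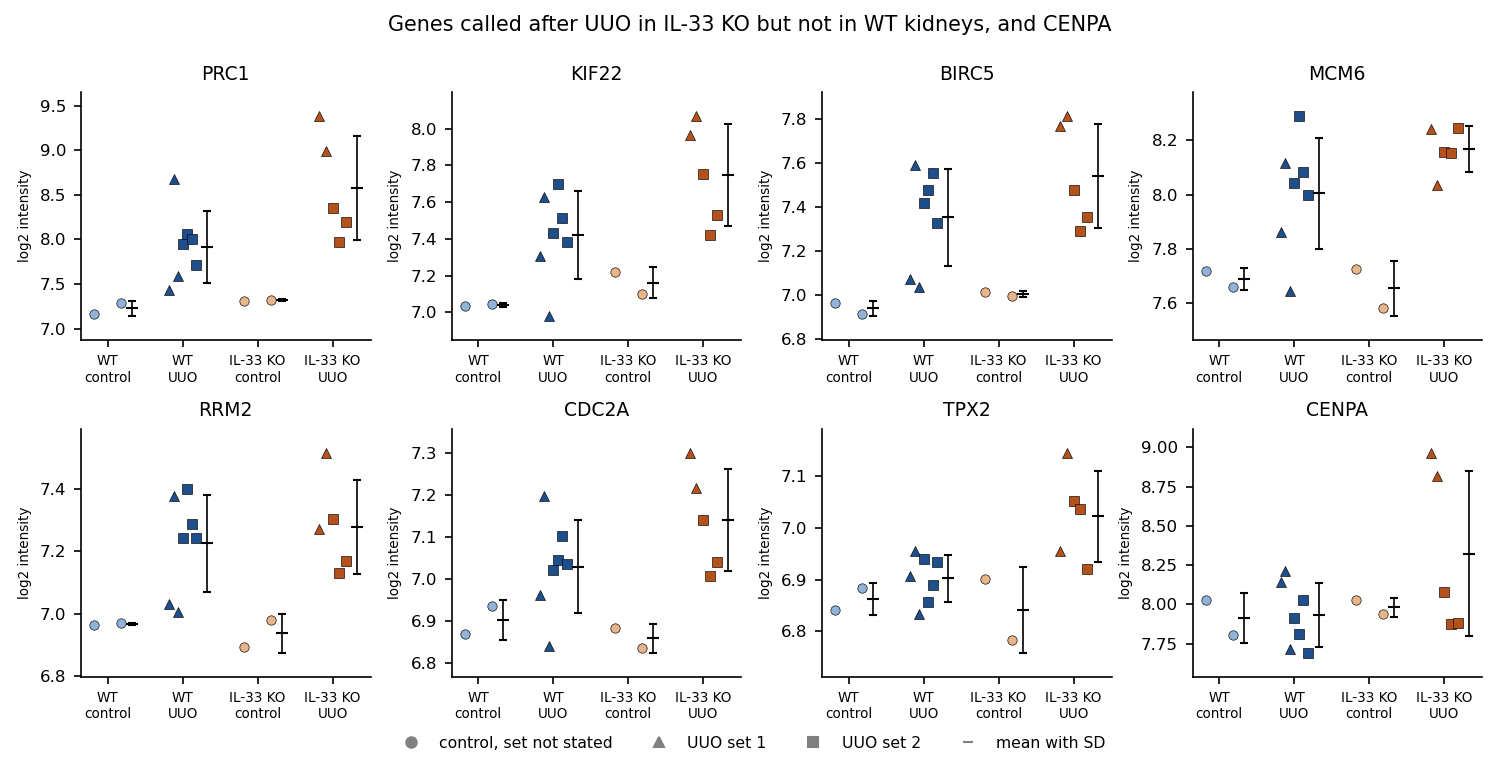
Log2 intensity of every kidney, by group, for the 7 genes called after UUO in IL-33 KO but not in WT kidneys and for CENPA, which was added for its split between the sets; circles are controls, triangles UUO set 1, squares UUO set 2, and the mean with its SD stands beside each group. For CENPA the 2 IL-33 KO kidneys of set 1 lie at 8.97 and 8.82 and the 3 of set 2 at 7.88 to 8.08.

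The single kidneys also differed by set, a pattern noticed in the values and described here without a test. In IL-33-deficient kidneys both set 1 kidneys lay above all 3 of set 2 for 9 of the 14 spindle genes and for 6 of the 11 genes of mitotic entry, but for 1 of the 16 genes of origin licensing and nucleotide supply, MCM3. Over all genes 13.1% lay higher in this way and 11.8% lower. CENPA, AURKA, PLK1, CCNB1 and CDC20 were among those higher, while CCND1, CCND3 and CCNA2 were lower in set 1. The median difference of the spindle genes from the controls was 0.27 and 0.34 in the set 1 kidneys and 0.15, 0.09 and 0.09 in those of set 2. For MCM2 to MCM7 it was 0.66 and 0.52 in set 1 and 0.58, 0.56 and 0.54 in set 2. Among WT kidneys of set 1 the spindle median was 0.21 in kidney 3819 and 0.04 and 0.02 in 3818 and 3820, and it lay between 0.10 and 0.13 in set 2.

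**Figure D4:**
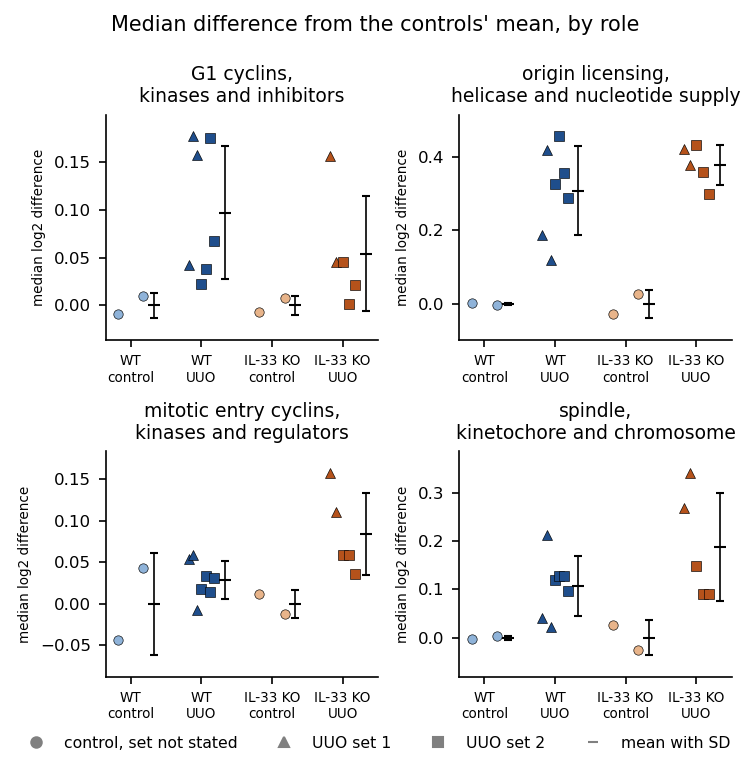
For each kidney the median, over the genes of a role, of the log2 difference from the average control of the same genotype is plotted by group, with the mean and SD of the group beside it, circles for controls, triangles for UUO set 1 and squares for UUO set 2. The genes of origin licensing and nucleotide supply lie above the controls in every obstructed kidney, at 0.12 to 0.46 in WT and 0.30 to 0.43 in IL-33 KO kidneys, and the 2 triangles of IL-33 KO kidneys lie highest for the spindle genes.

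Other signs of injury moved in the same kidneys, and their part in these results was not tested. Kidney 3820, with the lowest HAVCR1 after UUO, had a median MCM2 to MCM7 difference of 0.13 and kidney 3818 one of 0.43, beside 0.42 to 0.79 in the other WT kidneys. Of the genes listed as markers of tubule injury, 6 of 7 rose in WT and 7 of 7 in IL-33-deficient kidneys, and their summed intensity went from 6378 to 7725 in WT controls to 23185 to 47024 after UUO, and from 7147 to 8043 to 37685 to 47079 in IL-33-deficient kidneys. Of the markers of kidney tubules, 3 and 4 of 8 fell, with sums of 61235 to 64335 in WT controls and 34782 to 61703 after UUO, and of 63176 to 65599 and 31085 to 39881 in IL-33-deficient kidneys.

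Some markers of cells that enter or divide in injured kidneys moved as well, and others did not. The macrophage marker that fell was CSF1R, by 0.41 in WT and 0.36 in IL-33-deficient kidneys. EMR1, ITGAM, the leukocyte marker PTPRC and the fibroblast markers PDGFRA and DCN were not called in either genotype. The sums below weigh bright genes most, and the bright LYZ was not called in WT kidneys (adjusted p = 0.737 from limma). Of 8 macrophage and monocyte markers, 2 rose and 1 fell in WT and 5 rose and 1 fell in IL-33-deficient kidneys, with sums of 4661 to 4860 in WT controls, 4813 to 10314 in WT kidneys after UUO, 3845 to 4331 in IL-33-deficient controls and 6778 to 10508.5 after UUO. Of 7 fibroblast and pericyte markers, 4 and 5 rose, with sums of 3139 to 3554, 3211 to 5051, 3192 to 3295 and 5234 to 6152 in the same order of groups. Of the 4 common leukocyte markers 1 and 2 rose, with sums of 1437 to 1583, 1637 to 2875, 1441 to 1475 and 1981 to 2939, and of the 4 neutrophil markers 1 and 2 rose, with sums of 728 to 876, 802 to 2213, 491 to 673 and 1309.7 to 2720.5. None of the 7 lymphocyte markers was called and 5 of them were below the median gene, and of 6 endothelial, 5 erythroid and 2 podocyte markers none but 1 podocyte marker fell in WT kidneys, while 2 endothelial and 1 podocyte marker fell in kidneys that lacked IL-33. No marker can read 0 on this scale. In whole kidney RNA, more cells of a type and more RNA per cell cannot be told apart.

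IL-33-deficient and WT kidneys were compared directly over the 12 arrays after UUO. At the threshold of the study, a p below 0.05 before adjustment and below 0.25 after it with a fold change over 1.3, 0 of the 51 genes were called by limma, as against 2 of all 18132 genes (0.011%). The study used 4 WT kidneys in its contrast and counted probes, of which far more passed, so its count and this one are not alike. With only the 4 WT kidneys of set 2 on the WT side, 0 of the 51 genes were called as well. The median difference was 0.05, beside 0.0026 over all genes. At an unadjusted p of 0.05 limma gave 7 genes, all higher in IL-33-deficient kidneys, where 5.55% of all genes were higher and 4.78% lower: CDK2, AURKA, TOP2A, PRC1, KIF22, TPX2 and CHEK1. Their adjusted p lay between 0.311 and 0.462.

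PRC1 had the largest of these differences, 0.66 (95% interval 0.11 to 1.21), with an exact two-sided permutation p of 0.0442. Within set 1 the difference of means was 1.29 and within set 2 it was 0.24. AURKA differed by 0.17 (95% interval 0.07 to 0.28), at 6.91, 7.01 and 7.09 in WT and at 7.30, 7.28, 7.10, 7.05 and 7.15 in IL-33-deficient kidneys, by 0.28 within set 1 and 0.10 within set 2. The groups overlapped between 7.05 and 7.09, and the exact permutation p was 0.00253. The permutation tests took no account of the sets and were not adjusted for the number of genes. The adjusted p of AURKA from limma was 0.311. Among the 51, CHEK1 alone had groups that did not overlap, at 6.75 to 6.81 in WT and 6.83 to 6.86 in IL-33-deficient kidneys, a difference of 0.06 between values that are all dimmer than the median gene. Of all genes, 0.419% were higher without overlap and 0.336% lower.

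The differences of the remaining genes within each set are given without a test of the sets. KIF22 differed by 0.71 in set 1 and 0.06 in set 2, TOP2A by 0.57 and 0.10, CDK2 by 0.32 and 0.07, TPX2 by 0.15 and 0.10 and CHEK1 by 0.07 and 0.05. With the set as a block in the fit, 9 of the 51 genes were higher at an unadjusted p of 0.05 from limma, these 7 with CENPA and CDC20, beside 6.09% of all genes higher and 4.94% lower. Their adjusted p lay between 0.274 and 0.443, and none was called. Over the 51 genes the IL-33-deficient mean was above the WT mean for 38 in set 1, with a median difference of 0.15, and for 31 in set 2, with a median of 0.02. The same values over all genes within each set are not given here, so these counts cannot be read as particular to the 51. WT kidneys 3818 and 3820, the lowest obstructed kidneys for the injury genes HAVCR1 and LCN2, make up 2 of the 3 WT kidneys of set 1. Their part in these differences was not tested. The helicase genes showed no called difference, with 95% intervals of -0.14 to 0.89 for MCM5, -0.04 to 0.46 for MCM4 and -0.07 to 0.41 for MCM2, which leave room for a difference of appreciable size. The difference for CCND1 was -0.31 (95% interval -0.62 to 0.01), with -0.65 in set 1 and -0.06 in set 2. Of 7 fibroblast and pericyte markers, 1 was called higher in IL-33-deficient than in WT kidneys in the same comparison, and its part was not tested.

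Whether the response to UUO itself differed between the genotypes was tested as an interaction in the model of 16 arrays. It was called for 0 of the 51 genes and for 0% of all genes, and at an unadjusted p of 0.05 limma gave 0 of the 51 and 4.74% of all genes. For PRC1 the difference in response was 0.57 (standard error 0.47, adjusted p = 0.973), for TPX2 0.14 (standard error 0.08) and for MCM5 0.22 (standard error 0.43). Between the control kidneys of the genotypes 0 of the 51 genes and 0% of all genes were called, with 0 of the 51 and 3.66% of all genes at an unadjusted p of 0.05. Neither comparison called IL33, the deleted gene. Its interaction was -1.41 (adjusted p = 0.899 from limma) and its difference between controls -0.95 (unadjusted p = 0.00367 from limma). The absence of calls thus does not show that the genotypes were alike.

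Of 156 further genes of the cell cycle, 140 were found. In WT kidneys 24 rose and 4 fell after UUO, and in IL-33-deficient kidneys 30 rose and 4 fell, with medians of 0.06 and 0.07. The largest rises were those of TUBB5, a beta-tubulin, with 1.42 in WT and 1.83 in IL-33-deficient kidneys (adjusted p = 0.00375 and 0.000429 from limma), and of CDKN1A (p21), an inhibitor of cyclin-dependent kinases, with 1.25 and 1.52 (adjusted p = 0.00137 and 0.000196). CDCA7 followed in WT with 1.03 and H2AFZ, a histone variant, in IL-33-deficient kidneys with 1.05. ORC3L, a subunit of the origin recognition complex, fell by 0.43 and 0.67, STAG2, a subunit of cohesin, fell by 0.34 and 0.28, and DUT, which keeps uracil out of DNA, fell by 0.29 and 0.25. Genes of origin and fork outside the first list showed 12 rises and 2 falls of 39 in WT and 13 rises and 3 falls in IL-33-deficient kidneys. Genes of spindle and chromatid showed 9 rises and 1 fall of 55 in WT and 11 rises and 1 fall in IL-33-deficient kidneys. Those of G1 and S gave 2 rises of 24 in each genotype, and those of G2 and mitosis 1 rise and 1 fall of 22 in WT and 4 rises in IL-33-deficient kidneys. Beside the 6.97% and 10.6% of all genes that rose, these last counts are too small to say anything particular of their lists.

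The letters of promoters are shown for a few of the genes that rose. RefSeq promoters of GRCm38.p6 were matched to 42 of the 51 genes, each as the 250 bases before a transcription start. For 16 of the 42 a window runs into the span of the gene itself, E2F1, CDC6, MCM5, PRC1 and KIF22 among them, and the search was kept to the 26 genes with every window outside it. Both strands were searched for 3 elements. The E2F core was spelled TTCCCGC in its first form, with TTGGCGC taken as another form and TTCGCGC as the last one. The cell cycle homology region of mitotic genes (CHR) was spelled TTTGAA in this search. The CCAAT box can share letters with an E2F core. An E2F core was found in 5 of the 26 genes (19.2%) and in 5.5% of all 17088 genes with such windows. It was found in 3 of the 9 genes called after UUO and in 2 of the 17 not called. CHR letters were found in 7 of the 26 (26.9%) and 18.2% of all genes, in 2 of the 9 called and 5 of the 17 not called, and CCAAT in 76.9% of the 26 and 34.6% of all genes. A match of letters is not evidence that a factor binds there, and these shares were not tested. The 4 sequences printed are those of the called genes, out of the 9, that hold 2 E2F cores or any CHR letters. E2F cores and CHR letters are in capitals, and the lines run 5′ to 3′ on the strand of the gene, which is - for all of them, MCM6 at chr1:128359706-128359955, CDK2 at chr10:128705052-128705301, CDC2A at chr10:69352913-69353162 and MCM2 at chr6:88898781-88899030.
MCM6: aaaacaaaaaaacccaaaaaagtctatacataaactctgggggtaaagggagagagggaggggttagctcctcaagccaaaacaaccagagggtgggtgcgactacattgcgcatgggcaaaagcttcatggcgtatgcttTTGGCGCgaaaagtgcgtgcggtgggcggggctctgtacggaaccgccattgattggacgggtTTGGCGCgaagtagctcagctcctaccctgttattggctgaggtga
CDK2: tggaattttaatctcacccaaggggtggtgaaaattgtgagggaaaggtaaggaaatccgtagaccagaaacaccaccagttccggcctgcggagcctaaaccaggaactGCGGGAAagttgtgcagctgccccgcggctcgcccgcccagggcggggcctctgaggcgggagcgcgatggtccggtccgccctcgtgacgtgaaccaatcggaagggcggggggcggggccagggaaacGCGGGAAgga
CDC2A: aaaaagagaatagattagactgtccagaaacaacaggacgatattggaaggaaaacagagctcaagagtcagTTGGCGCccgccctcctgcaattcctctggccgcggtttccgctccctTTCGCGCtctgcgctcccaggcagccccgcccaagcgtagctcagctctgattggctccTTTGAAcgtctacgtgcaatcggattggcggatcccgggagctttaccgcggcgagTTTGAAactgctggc
MCM2: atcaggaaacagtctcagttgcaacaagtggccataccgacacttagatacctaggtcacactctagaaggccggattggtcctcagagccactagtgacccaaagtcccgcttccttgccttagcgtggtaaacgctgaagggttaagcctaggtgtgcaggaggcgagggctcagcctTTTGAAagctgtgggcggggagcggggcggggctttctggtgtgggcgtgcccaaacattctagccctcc
Of the elements in capitals, MCM6 and CDK2 hold only E2F cores, MCM2 holds only CHR letters and CDC2A holds both. Each of these genes also holds CCAAT letters, which are not in capitals. Of these, CDK2 and MCM2 were called after UUO in both genotypes and MCM6 and CDC2A in IL-33-deficient kidneys. MCM3, CDT1 and MAD2L1 were called in both as well, and the E2F letters searched were not in this window of theirs.

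The calls rested on few controls and differed between the sets. The controls carry no set, so the set could not be a term in the fits of UUO against control. With set 1 alone 1 gene was called in WT kidneys (TYMS), and with set 2 alone 20 were. In IL-33-deficient kidneys 15 genes were called with set 1 alone, 11 of them among the 19 of the main fit. With set 2 alone 21 were called, 17 of them among the 19, and CDKN2C among the rest was lower. Without WT control 3811, 4 of the 12 genes called in WT kidneys remained (MAD2L1, MCM4, TYMS and UHRF1), and without WT control 3812, 3 remained (MCM4, TYMS and UHRF1). Without IL-33-deficient control 3813, 7 of 19 remained, and without 3814, 9, with CDK2, MAD2L1, MCM4, MCM5 and UHRF1 in both. Leaving out WT kidneys 3818 and 3820 together gave 16 calls in WT kidneys, the 12 and BIRC5, KIF22, MCM6 and RRM2. Shares over all genes in these fits are not given here, so the counts cannot be read as particular to these genes.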

How the data were processed

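Total RNA of kidney homogenates was labelled with biotin and hybridized to Illumina MouseRef-8 v2 BeadChips. Import was by beadarray per the study's methods, the submitters' processing notes name BeadStudio 2, and the deposited intensities are on a linear scale, 1 per gene for 18132 genes and 16 arrays, from 95.5 to 23471. Background correction, normalization and the joining of probes are not given in the sources used here. Array medians of 132 to 133 show that arrays had been scaled alike. Precision is limited by the number of arrays.

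Quantile normalization and log2 came first, then limma 3.58.1 (lmFit, eBayes; R 4.3.3) on all genes without a filter. P-values were adjusted by Benjamini-Hochberg over the whole table, and calls were made at an adjusted p of 0.05. The response to UUO, its difference between genotypes and the control comparison came from 1 model of 4 groups, and IL-33-deficient against WT after UUO from the 12 UUO arrays. Exact permutation tests, promoters and plots used Python 3.11.15, scipy 1.17.1, pandas 2.3.3 and matplotlib 3.10.9. On simulated arrays, 97.0% of 200 genes changed by a log2 of 1 were recovered for the WT response and 96.5% for the IL-33-deficient response. The shares were 99.0% for the genotypes after UUO and 90.5% for the interaction. False calls numbered 9, 15, 8 and 9 in the same order. Most changes of the genes described were smaller, with median responses of 0.12 in WT and 0.18 in IL-33-deficient kidneys. Their largest interaction was 0.57 (PRC1, standard error 0.47). Smaller changes were not simulated, so these shares do not say how many of them would be found. Larger changes were missed in the kidneys themselves. The interaction of IL33 was -1.41 and was not called (adjusted p = 0.899 from limma). The simulated shares therefore do not measure how much was found in these data.

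Samples were grouped by the labels and named by their label number. The genes, the lists of further cell cycle genes and the marker lists (tubule injury, kidney tubule, macrophage and monocyte, leukocyte, neutrophil, lymphocyte, fibroblast and pericyte, endothelium, erythroid, podocyte) were chosen with earlier results of these data known. Every found gene is named. Values of kidneys are given for genes called in either response, and of the further genes the 3 largest rises and falls among those called in each genotype are named. Alternatives varied the normalization, background, filter, variance model, array weights, arrays, sets and threshold. Sequences are from RefSeq, GRCm38.p6.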

Additional observations from a re-analysis of the deposited data

Results flagged for a closer look

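Each gene was searched in both groups of obstructed kidneys, 102 groups in all, for a kidney far from the rest of its group. There were 5, and chance flags about 1 in 20 groups, which is about as many. CCND2 was at 7.87 in WT kidney 3819, above the other WT kidneys at 7.37 to 7.56. MCM4 was at 8.84 in IL-33-deficient kidney 3821, above the others at 8.50 to 8.57. MCM7 was at 7.04 in WT kidney 3820, below the others at 7.31 to 7.42, and this is also the kidney with the lowest HAVCR1 after UUO. MCM10 was at 7.51 in IL-33-deficient kidney 3899, above the others at 7.31 to 7.36. NUSAP1 was at 6.96 in WT kidney 3895, below the others at 7.03 to 7.06.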

How the results depend on the processing

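The 12 genes higher in WT kidneys after UUO became 6 with the arrays of that genotype alone, 1 with set 1 alone (TYMS, log2 0.40, adjusted p = 0.0261 from limma, the highest of its settings, which began at 0.000137), 20 with set 2 alone and 7 with a fold change above 1.3 required, and 3 to 16 when any 1 array was left out. The 19 in IL-33-deficient kidneys became 11 with a fold change above 1.3 and 7 to 18 when any 1 array was left out. In set 2 alone 1 gene was lower there, CDKN2C, with a log2 change of -0.21 (adjusted p = 0.0407 from limma). All other settings gave 9 to 17 genes in WT and 13 to 22 in IL-33-deficient kidneys. Fewer samples and a stricter rule make up some of these settings by construction, and otherwise the cause was not tested. Shares over all genes under these settings are not given here. In the comparison of genotypes after UUO, leaving out 1 array gave 0 or 1 genes: without WT kidney 3819 PRC1 was called at the threshold of the study for this comparison, an adjusted p below 0.25 (log2 0.79, adjusted p = 0.18 from limma). The interaction and the control comparison gave 0 genes in every setting. Of the changes of called genes recomputed under these settings, 431 kept their call, 97 lost it and 0 changed direction. Subtracting the background enlarged the changes of the called genes 1.36 to 4.07 times, from 1.20 to 2.40 for UHRF1 in WT kidneys and from 0.37 to 1.25 for MCM3 in IL-33-deficient kidneys, so the sizes of change are those of these intensities and not of transcripts. No paired analysis was possible because the groups share no replicate numbers.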
